A study of Mus musculus with 30 samples.

Results

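The Dusp MAP kinase phosphatases are enzymes that switch MAP kinases off. Probes were chosen by gene name, for the 10 members Dusp1, Dusp2, Dusp4, Dusp5, Dusp6, Dusp8, Dusp9, Dusp10, Dusp14 and Dusp16, and 9 of these 10 were measured, with 14 spots per array among 21689 named genes. Dusp5 had no probe under that name and is not analysed here. The data were 30 Agilent arrays of mouse embryonic fibroblasts (MEFs), cells grown from mouse embryos and immortalised, with 2 arrays from 2 independent experiments in each of 15 groups. Wild type MEFs made up 11 of these groups, and the remaining 4 were p38α-/- MEFs, which lack the stress-activated kinase p38α encoded by Mapk14. Wild type MEFs received anisomycin, an inhibitor of protein synthesis (25 ng/ml for 45 min), the cytokine TNFα (100 ng/ml for 45 min) or osmostress (100 mM NaCl for 45 min, 2 h or 8 h). Each of these treatments was also given after the p38 inhibitor SB203580 (10 µM, added 30 min before the stress), and SB203580 was also given alone. The groups of p38α-/- MEFs were untreated, anisomycin, TNFα and NaCl for 2 h, at the same doses. For SB203580 the sample labels state another concentration and time than the methods, whose values are used here. Every array set the treated sample, in Cy5, against the same reference in Cy3, which pooled 2 wild type cultures without treatment, so the pool is the control of all groups, and no untreated wild type sample was set against it on an array of its own.

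A dual-specificity phosphatase removes phosphate from both the threonine and the tyrosine of the activation loop of a MAP kinase, and many members are immediate-early genes that the kinases themselves turn on, which makes them negative feedback enzymes. Dusp1, Dusp2, Dusp4 and Dusp5 are inducible nuclear enzymes. Dusp6 and Dusp9 are cytoplasmic enzymes that prefer ERK, Dusp8, Dusp10 and Dusp16 prefer the stress kinases JNK and p38, and Dusp14 is a small atypical phosphatase without the kinase-binding domain of the others.

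Promoter sequences are shown for 3 members because their stress profiles in wild type MEFs differed. In the tests below, Dusp1 was above the pool with every stress and Dusp8 with anisomycin and TNFα. Dusp10 passed the test against the pool with anisomycin and with NaCl at 2 h and 8 h. The sequences are the 250 bases before the start of the gene, 5′ to 3′ on the gene's strand, from RefSeq on GRCm38.p6, and capitals mark the cAMP response element (CRE, TGACGTCA).
Dusp1 (chr17:26508473-26508722, minus strand): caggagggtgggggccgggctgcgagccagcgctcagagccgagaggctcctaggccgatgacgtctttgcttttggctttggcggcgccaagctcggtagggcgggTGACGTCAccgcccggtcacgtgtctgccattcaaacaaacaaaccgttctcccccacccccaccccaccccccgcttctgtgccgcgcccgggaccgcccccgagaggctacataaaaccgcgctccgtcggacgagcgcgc
Dusp8 (chr7:142095285-142095534, minus strand): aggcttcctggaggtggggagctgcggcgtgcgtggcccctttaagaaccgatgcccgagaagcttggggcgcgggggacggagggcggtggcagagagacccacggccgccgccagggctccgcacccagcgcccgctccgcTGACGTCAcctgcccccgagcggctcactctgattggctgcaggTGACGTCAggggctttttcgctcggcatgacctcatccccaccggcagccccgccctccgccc
Dusp10 (chr1:184034131-184034380, plus strand): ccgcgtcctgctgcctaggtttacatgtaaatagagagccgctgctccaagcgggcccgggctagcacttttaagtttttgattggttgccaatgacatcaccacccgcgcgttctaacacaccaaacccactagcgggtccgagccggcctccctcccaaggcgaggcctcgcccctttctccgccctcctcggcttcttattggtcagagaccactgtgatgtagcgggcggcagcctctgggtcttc
The RefSeq promoter table held 8 of the 10 members, all except Dusp4 and Dusp9. Searched in windows of 300 bases (250 before the start and 50 after it), the CRE was found in 2 of the 8 members, with the first base 143 bases before the start in Dusp1 and 107 and 63 bases before it in Dusp8, against 1.79% of all 32851 promoters. Its shorter core TGACG, on either strand, lay within these and at a separate site of Dusp1, 191 bases before the start. It was also found in Dusp2 (after the start), Dusp5 and Dusp16, against 20.8% of all promoters. The E-box CACGTG was found in Dusp1 and Dusp2 (7.15% of all promoters) and the CArG box in Dusp5 (1.63%). The AP-1 element TGAGTCA (5.20%), the kappaB motif (8.46%) and TATAAA (13.6%) had no match in any member. A match of letters is a description of the window, and binding of a factor was not measured.

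Values are log2 ratios of the treated sample to the pool unless stated, given for the first and then the second array of a group. The scanner software marked 99 of the 420 spots of the members as outliers, and per array 6.78% to 44.8% of all spots. The main test left these spots out and could not be made for a member in a group where an array had no unmarked probe of it. A member with several probes was averaged over the unmarked ones, so its arrays could rest on different probes. Dusp4 at 45 min of NaCl gave 0.77 from both probes on the first array. On the second it gave 0.36 from probe A_51_P518051 alone. A second test kept them, and both are given. Each error is the standard error (SE) of the limma fit over all 15 groups, n = 2 arrays a group, and a gene was called at an adjusted p under 0.05, with the Benjamini-Hochberg adjustment over all genes tested. Of the 14 probes, 13 were well above background in both dyes on all 30 arrays and none was saturated; the exception was a probe of Dusp16. Over the arrays, 81.1% to 96.8% of spots were well above background in Cy5 and 92.6% to 98.9% in Cy3. Mapk14 lay between 0.05 and 1.31 on the arrays of wild type MEFs and was lower in p38α-/- MEFs, at -1.26 and -2.24 with anisomycin, -1.09 and -1.93 with NaCl, -0.94 on the measured array of untreated cells and -1.13 on that with TNFα. All 13 fibroblast markers looked up were well above background on every Cy3 channel, with median signals between 821 and 179703, of which that of the collagen gene Col3a1 was the highest. The markers of macrophages (5 on the array), endothelial cells (5), epithelial cells (2) and pluripotent cells (3) were above it too, at median signals of 666 to 7142, 185 to 1621, 1204 to 2376 and 477 to 30707, so this limit does not separate cell types. In RNA of whole cultures, fewer cells with a transcript and less transcript per cell cannot be told apart.

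In wild type MEFs, 4 members were called above the pool with anisomycin in the main test (Dusp4, Dusp8, Dusp10 and Dusp16), 1 with TNFα (Dusp8), 3 with NaCl at 2 h (Dusp1, Dusp4 and Dusp10) and 4 with NaCl at 8 h (Dusp1, Dusp4, Dusp10 and Dusp14). The members that could be tested numbered 5, 5, 8 and 7. A call is a level against the pool. Dusp10 at 8 h of NaCl (mean 0.81) lay no higher than without stress (1.04 with SB203580 alone and 1.06 in untreated p38α-/- MEFs). With NaCl at 45 min none of 6 was called by limma, 2 of them having an unadjusted p under 0.05. Of all genes tested, 5.72% were called higher with anisomycin, 5.25% with TNFα, 4.69% with NaCl at 45 min, 5.24% at 2 h and 11% at 8 h. With outlier spots kept all 9 members could be tested, and the counts were 6 with anisomycin (Dusp1 and Dusp14 added), 2 with TNFα (Dusp1 added), 2 with NaCl at 45 min (Dusp1 and Dusp4), 4 at 2 h (Dusp6 added) and 4 at 8 h (the genes of the main test). The shares of all genes were then 6.51%, 6.1%, 5.01%, 7.25% and 10.4%. No member was called lower than the pool in any of these 5 groups in either test. The median of the 9 members with outlier spots kept was 0.62 with anisomycin, 0.43 with TNFα, 0.34, 0.42 and 0.32 with NaCl at 45 min, 2 h and 8 h, and the median of all genes was -0.07, -0.06, -0.06, -0.03 and -0.03.

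**Figure D1:**
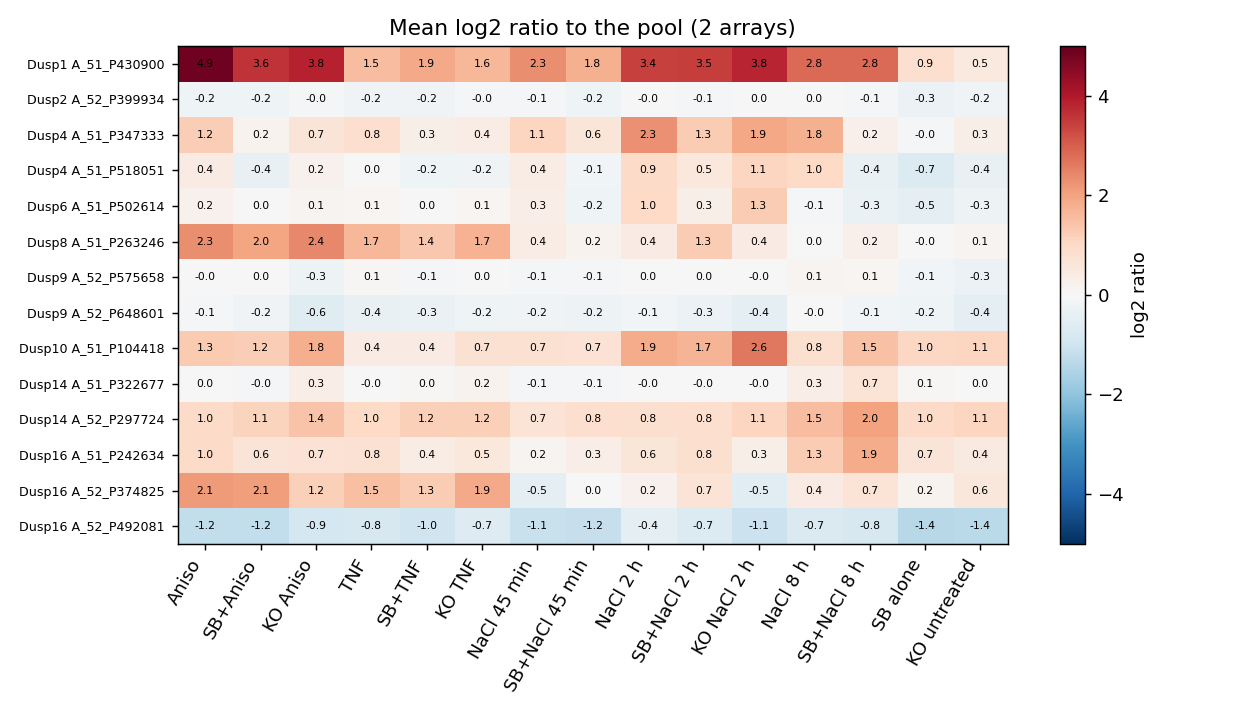
Mean log2 ratio to the pool over 2 arrays, outlier spots kept, for the 14 probes (rows) in the 15 groups (columns; SB, after SB203580; KO, p38α-/- MEFs); red is above the pool and blue below it. Dusp1 is above the pool in every group, Dusp8 is high with anisomycin and TNFα in all 3 arms, and probe A_52_P492081 of Dusp16 is below the pool throughout; probe A_52_P374825 was too dim in several NaCl groups for its colour to be read as a level.

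Dusp1, a nuclear phosphatase that acts on p38, JNK and ERK, had the highest induction of the members. Its probe A_51_P430900 was above the pool on 30 of 30 arrays, between 0.31 and 5.06. With anisomycin it gave 5.06 and 4.66 (mean 4.86 ± 0.19 SE, 29.0-fold, adjusted p = 6.45e-12 with outlier spots kept, the first spot being one). With TNFα it gave 1.39 and 1.67 (1.53 ± 0.19, 2.89-fold, adjusted p = 2.74e-05 with outlier spots kept, the second being one). Both anisomycin arrays lay well above both TNFα arrays.
With NaCl the ratios of Dusp1 were 2.66 and 2.02 at 45 min (mean 2.34, 5.06-fold, the second an outlier spot), 3.51 and 3.34 at 2 h (3.42, 10.7-fold) and 2.79 and 2.89 at 8 h (2.84, 7.15-fold). The arrays of the 3 times did not overlap. The main test called 2 h (adjusted p = 6.53e-08) and 8 h (adjusted p = 1.52e-07), and the test with outlier spots kept called 45 min (adjusted p = 1.01e-06). Neither step of the time course passed the test: the difference of 2 h from 45 min was 1.08 ± 0.26 (adjusted p = 0.146 with outlier spots kept) and that of 8 h from 2 h was -0.59 ± 0.21 (adjusted p = 0.127).
The order of the levels of Dusp1 was thus anisomycin, NaCl at 2 h, 8 h and 45 min, and TNFα. Anisomycin was above TNFα by 3.33 ± 0.26 (10.0-fold, adjusted p = 7.64e-07 with outlier spots kept) and above NaCl at 45 min by 2.52 ± 0.26 (5.73-fold, adjusted p = 4.09e-05), all 3 after 45 min of treatment. TNFα and NaCl at 45 min, which are neighbours in the order, differed by -0.81 ± 0.26 (adjusted p = 0.536).

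Dusp2, a nuclear phosphatase known from activated immune cells, stayed between -0.46 and 0.08 on the 30 arrays, although its probe was brighter than most (median Cy3 signal 5654). None of the 5 stresses in wild type MEFs moved it past the test.

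Dusp4 is a nuclear phosphatase of ERK and JNK with 2 probes on the array. Probe A_51_P347333 gave 1.35 and 1.08 with anisomycin, 0.85 and 0.84 with TNFα (the second an outlier spot), and 1.18 and 0.95 with NaCl at 45 min (the second an outlier spot). It reached 2.57 and 2.04 at 2 h of NaCl (mean 2.30, 4.93-fold) and 1.35 and 2.22 at 8 h (1.79, 3.45-fold), so the arrays of these later times overlapped. Probe A_51_P518051 moved less.
Its values were 0.43 and 0.36 with anisomycin, -0.21 and 0.22 with TNFα, 0.35 and 0.36 at 45 min of NaCl, 1.04 and 0.85 at 2 h (0.95 ± 0.17, adjusted p = 0.00124) and 1.00 and 0.98 at 8 h (0.99 ± 0.17, adjusted p = 0.000283). Both probes were called at 2 h and 8 h of NaCl, whereas anisomycin was called for the first probe (1.21 ± 0.30, adjusted p = 0.0142) and not for the second (0.39 ± 0.17, adjusted p = 0.119, or 0.0483 with replicate number as a block). Averaged over both probes, Dusp4 gave 0.80 ± 0.22 with anisomycin (adjusted p = 0.0218), 1.62 ± 0.22 at 2 h (3.08-fold, adjusted p = 0.000128) and 1.39 ± 0.22 at 8 h (2.62-fold, adjusted p = 0.000148). At 45 min of NaCl the mean of 0.56 ± 0.22 missed the main test (adjusted p = 0.104, or 0.0248 with the block), and with outlier spots kept it was 0.71 (adjusted p = 0.0248). Without either anisomycin array the call for anisomycin was lost (0.72, adjusted p = 0.312, without the first and 0.89, adjusted p = 0.0969, without the second), and the same held for NaCl at 45 min (0.66, adjusted p = 0.28, and 0.77, adjusted p = 0.122, outlier spots kept).

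Dusp6, the cytoplasmic phosphatase of ERK, had a bright probe (median Cy3 signal 23477) whose spot was marked as an outlier on 23 of 30 arrays, so it could be tested with outlier spots kept only. It gave 0.82 and 1.19 at 2 h of NaCl (1.00 ± 0.15, 2.01-fold, adjusted p = 0.000264), against 0.54 and 0.14 at 45 min and -0.12 and -0.02 at 8 h. It was thus above both neighbouring times on both arrays at 2 h. The difference of 8 h from 2 h was -1.07 ± 0.22 (adjusted p = 0.00401), or -0.89 (adjusted p = 0.0592) without the second array at 2 h, whereas that of 2 h from 45 min was 0.67 ± 0.22 (adjusted p = 0.439). With anisomycin it gave 0.31 and 0.11, and with TNFα 0.22 and -0.04, neither past the test.

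Dusp9, a further cytoplasmic phosphatase of ERK, had 2 probes that stayed near the pool. Probe A_52_P575658 lay between -0.56 and 0.31, with an outlier spot on 25 of 30 arrays, and probe A_52_P648601 between -0.89 and 0.15, above the pool on 1 array. Its mean was not called in any of the 5 wild type stress groups.

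Dusp8, a phosphatase that prefers JNK and p38, was called with anisomycin and with TNFα, and at no time of NaCl. Its probe A_51_P263246 gave 2.48 and 2.15 with anisomycin (2.31 ± 0.19, 4.97-fold, adjusted p = 1.76e-06) and 1.91 and 1.40 with TNFα (1.65 ± 0.19, 3.15-fold, adjusted p = 6.03e-05). With NaCl it gave 0.53 and 0.18 at 45 min, 0.73 and 0.11 at 2 h, and 0.06 and -0.04 at 8 h, and the adjusted p was 0.237, 0.168 and 0.984. The lowest of the 4 arrays with anisomycin or TNFα lay above the highest of the 6 with NaCl. At the matched time of 45 min anisomycin exceeded NaCl by 1.96 ± 0.26 (3.89-fold, adjusted p = 0.00179). TNFα exceeded NaCl by 1.30 ± 0.26 (adjusted p = 0.0578, or 0.0118 with replicate number as a block), and anisomycin exceeded TNFα by 0.66 ± 0.26 (adjusted p = 1).

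Dusp10, a phosphatase of JNK and p38 in nucleus and cytoplasm, had a dim but measured probe (A_51_P104418, median Cy3 signal 187, with no outlier spot), and was above the pool on 30 of 30 arrays. With anisomycin it gave 1.68 and 0.94 (1.31 ± 0.26, 2.48-fold, adjusted p = 0.00407), and with TNFα 0.43 and 0.42 (adjusted p = 0.326). With NaCl it gave 1.07 and 0.43 at 45 min, 2.42 and 1.33 at 2 h (1.87 ± 0.26, 3.66-fold, adjusted p = 0.000206) and 0.69 and 0.93 at 8 h (0.81 ± 0.26, adjusted p = 0.0337). The 2 arrays at 2 h were the highest of the time course, and those at 45 min and 8 h overlapped. Without stress Dusp10 was above the pool too, at a mean of 1.04 with SB203580 alone and 1.06 in untreated p38α-/- MEFs.
At 45 min of NaCl the adjusted p for Dusp10 was 0.0803, or 0.0323 with the block. The fall from 2 h to 8 h was -1.06 ± 0.37 (adjusted p = 0.0981, or 0.0464 with the block), and the step from 45 min to 2 h was 1.13 ± 0.37 (adjusted p = 0.531). Anisomycin differed from TNFα by 0.88 ± 0.37 and from NaCl at 45 min by 0.56 ± 0.37 (adjusted p = 1 for both). The calls of Dusp10 with anisomycin and with NaCl at 2 h were lost without the first array (0.94, adjusted p = 0.236, and 1.33, adjusted p = 0.0592) and stood without the second. At 8 h the call was lost without either array (0.93, adjusted p = 0.13, and 0.69, adjusted p = 0.296).

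Dusp16, a phosphatase of JNK and p38, had 3 probes that lay on different sides of the pool. Probe A_51_P242634 gave 1.34 and 0.58 with anisomycin (0.96 ± 0.26, adjusted p = 0.0177), 1.12 and 0.38 with TNFα (0.75 ± 0.26, adjusted p = 0.0569, or 0.0451 with the block), 0.18 and 0.13, 0.93 and 0.27, and 0.92 and 1.59 with NaCl at 45 min, 2 h and 8 h (at 8 h 1.25 ± 0.26, adjusted p = 0.00146). This probe was above the pool on 29 of 30 arrays. Without stress it gave 0.98 and 0.34 with SB203580 alone and 0.72 and 0.17 in untreated p38α-/- MEFs. Probe A_52_P374825, well above background in Cy5 on 17 of 30 arrays and in Cy3 on 28, gave 2.26 and 2.00 with anisomycin (2.13 ± 0.46, 4.38-fold, adjusted p = 0.00488) and 1.68 and 1.31 with TNFα, where the pool's own channel was not well above background on the second array. It was not well above background in Cy5 on any array of NaCl at 45 min.
Probe A_52_P492081 was below the pool on all 30 arrays, from -1.67 to -0.06, with an outlier spot on 15 of them. With anisomycin it gave -1.37 and -1.07 (-1.22 ± 0.21, adjusted p = 0.000347 with outlier spots kept), so its sign was opposite to that of the other probes on the same arrays. It was about as low without stress, at -1.67 and -1.09 with SB203580 alone and -1.54 and -1.17 in untreated p38α-/- MEFs. Its level with anisomycin can thus not be read as a response to it. The average for Dusp16 with anisomycin, 1.55 (adjusted p = 0.0178) without outlier spots, fell to 0.62 (adjusted p = 0.028) with them, since the probe below the pool then entered. Without the first anisomycin array that average was 1.29 (adjusted p = 0.328), and without the second 1.80 (adjusted p = 0.0716).

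Dusp14 also had 2 unlike probes. Probe A_52_P297724 was above the pool on 30 of 30 arrays, at 1.17 and 0.74 with anisomycin, 1.14 and 0.83 with TNFα, 0.80 and 0.60 at 45 min of NaCl, 1.32 and 0.28 at 2 h, and 1.80 and 1.29 at 8 h (1.55 ± 0.25, 2.92-fold, adjusted p = 0.000171). The other probe, A_51_P322677, stayed between -0.35 and 0.81, with 0.60 and 0.05 at 8 h (0.33 ± 0.14, adjusted p = 0.11, or 0.0223 with the block). Averaged over both, Dusp14 was called at 8 h of NaCl (0.94 ± 0.18, 1.91-fold, adjusted p = 0.00119), and without the first array it was 0.67 (adjusted p = 0.0971). With anisomycin and TNFα the averages of 0.49 and 0.48 had an adjusted p of 0.0914 and 0.107, or 0.0353 and 0.0418 with the block, and with outlier spots kept anisomycin was called (adjusted p = 0.0433), which was lost without either array (0.27, adjusted p = 0.613, and 0.70, adjusted p = 0.0549).

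**Figure D2:**
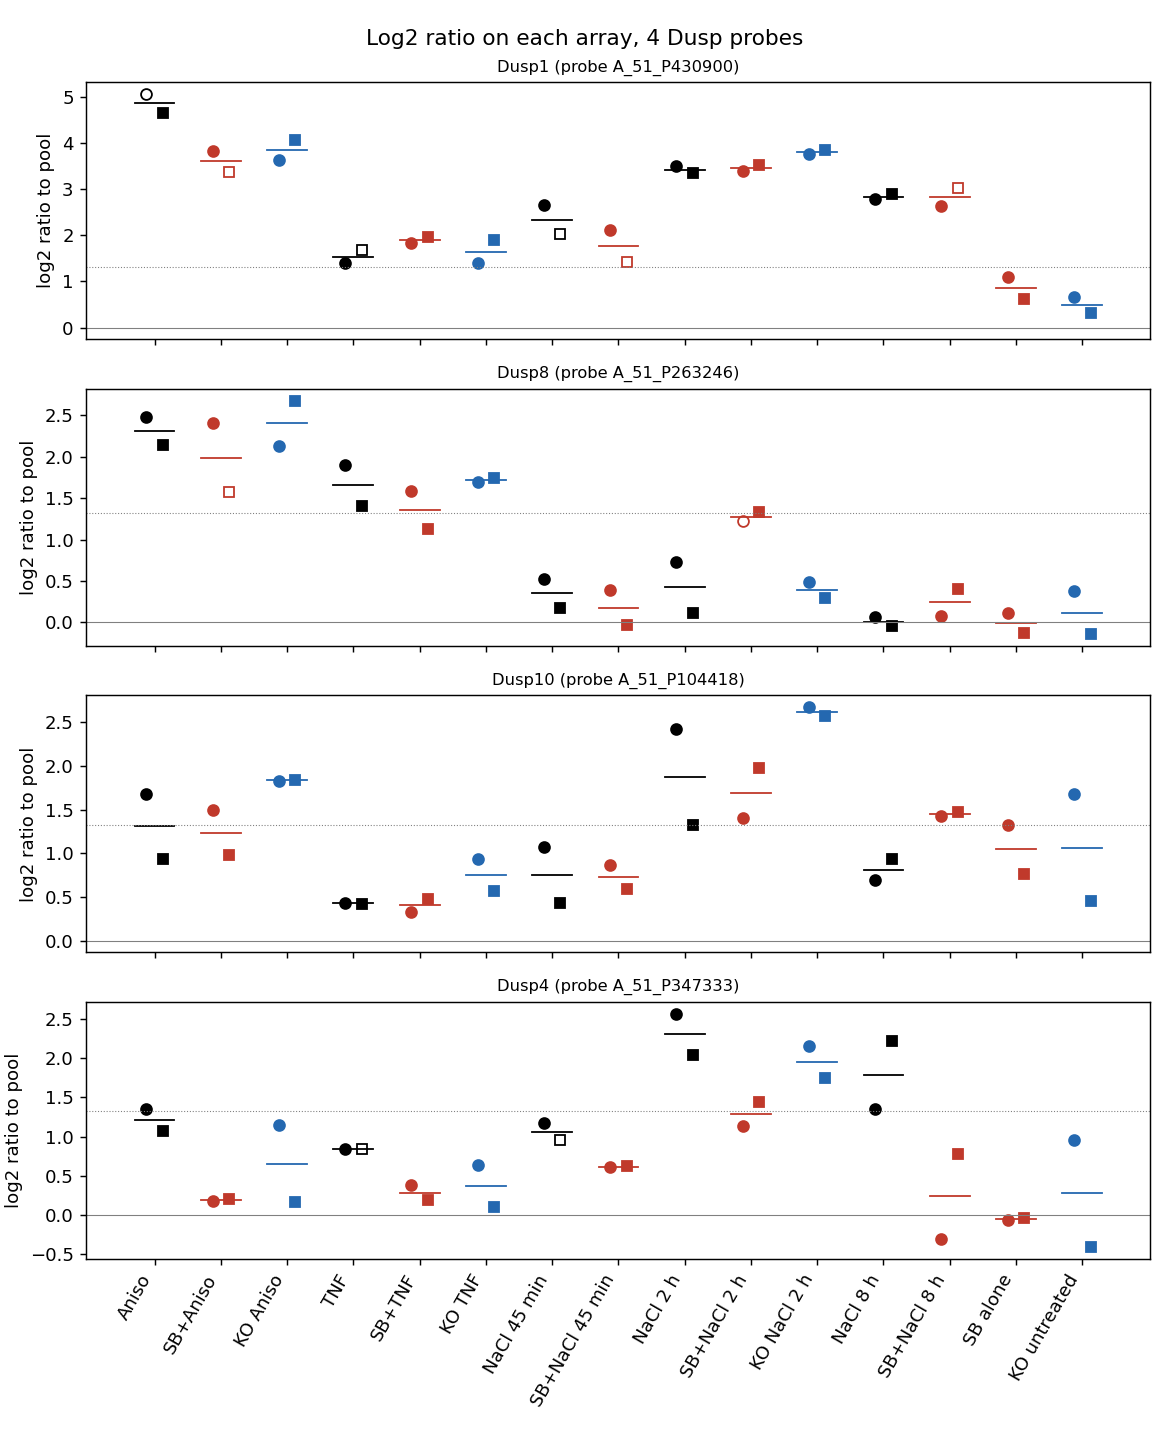
Log2 ratio to the pool on each array for 1 probe each of Dusp1, Dusp8, Dusp10 and Dusp4 in the 15 groups (black, wild type MEFs; red, with SB203580; blue, p38α-/- MEFs; circle, first array; square, second array; open, outlier spot; short line, mean; dotted line, 2.5-fold), each panel with its own scale. Dusp1 with anisomycin reaches 5.06 and 4.66, above all arrays with SB203580 or in p38α-/- MEFs, and Dusp8 with NaCl reaches at most 0.73 on the wild type arrays without SB203580.

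Over the 5 comparisons between stresses and between NaCl times, the main test made 1 call among 28 tests of members (Dusp8, anisomycin against NaCl at 45 min), with 10 unadjusted p-values under 0.05. Of all genes, 0.183% were called for anisomycin against TNFα, 0.289% for anisomycin against NaCl at 45 min, 0.235% for TNFα against NaCl at 45 min, 0.054% for NaCl at 2 h against 45 min and 7.81% for 8 h against 2 h. With outlier spots kept there were 4 calls in 45 tests, Dusp1 in both comparisons of anisomycin, Dusp8 as before and Dusp6 at 8 h against 2 h, beside 0.198%, 0.235%, 0.244%, 0.143% and 8.35% of all genes.

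Without any stress, both arms differed from the pool in some members. With SB203580 alone Dusp1 gave 1.1 and 0.62 (0.86 ± 0.15, 1.81-fold, adjusted p = 0.00176) and Dusp10 gave 1.33 and 0.76 (1.04 ± 0.26, 2.06-fold, adjusted p = 0.00817). In untreated p38α-/- MEFs Dusp1 gave 0.66 and 0.31 (0.48 ± 0.15, 1.40-fold, adjusted p = 0.0459, and with outlier spots kept 0.0641, or 0.0463 with the block as well) and Dusp10 gave 1.68 and 0.45 (1.06 ± 0.26, 2.09-fold, adjusted p = 0.0112). These were the 2 calls in each arm in the main test, where 26.6% of all genes were called with SB203580 alone and 15% in untreated p38α-/- MEFs. Dusp14 just missed it in both, at 0.51 ± 0.18 (adjusted p = 0.0504, or 0.0181 with the block) and 0.56 ± 0.18 (adjusted p = 0.0503, or 0.0174). These tests hold the spread of the arrays of each arm and not that of the pool. With no dye swap and no untreated wild type array, a constant offset of a probe against the pool cannot be told apart from a change. This holds for the calls of Dusp10 and Dusp14 under stress as well. Such an offset can also enter the other calls against the pool. Among these are calls of Dusp1 and Dusp16, whose probes A_51_P430900 and A_51_P242634 were above the pool in both unstressed arms.
With outlier spots kept, 5 members were called with SB203580 alone. Dusp1, Dusp10 and Dusp14 were above the pool, and Dusp6 (-0.45 and -0.48, mean -0.46 ± 0.15, adjusted p = 0.0223) and Dusp2 (-0.27 and -0.28, adjusted p = 0.0378) were below it. In untreated p38α-/- MEFs Dusp10 and Dusp14 were called above the pool and Dusp9 below it (-0.38, adjusted p = 0.022), and these calls stood beside 41.4% and 25.8% of all genes. Probe A_51_P518051 of Dusp4 was also below the pool with SB203580 alone, at -0.72 and -0.62 (adjusted p = 0.00649), whereas the other Dusp4 probe was at -0.06 and -0.04.
Without the first array of SB203580 alone the main calls were lost (Dusp1 0.62, adjusted p = 0.124; Dusp10 0.76, adjusted p = 0.301), as was Dusp14 with outlier spots kept (0.32, adjusted p = 0.426). Without the first array of untreated p38α-/- MEFs so were those of Dusp1 (0.31, adjusted p = 0.57), Dusp10 (0.45, adjusted p = 0.595), Dusp14 (0.42, adjusted p = 0.393) and Dusp9 (-0.34, adjusted p = 0.295), and without the second those of Dusp1 (0.66, adjusted p = 0.0628) and Dusp9 (-0.41, adjusted p = 0.085). The calls of Dusp2 and Dusp6 with SB203580 were lost without either array (for Dusp2 -0.28, adjusted p = 0.237, and -0.27, adjusted p = 0.151; for Dusp6 -0.48, adjusted p = 0.176, and -0.45, adjusted p = 0.12).

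Whether the inductions depended on p38 was asked with the inhibitor and with the knock out. No member was called for a difference between stress with SB203580 and stress alone, in 26 tests by limma over the 5 stresses with 4 unadjusted p-values under 0.05, nor with outlier spots kept, in 45 tests with 8. Few genes were called at all: 0.0204% with anisomycin, 0% with TNFα and with NaCl at 45 min and 2 h, and 0.206% with NaCl at 8 h, and with outlier spots kept 0.0415%, 0%, 0%, 0% and 0.198%. Between p38α-/- and wild type MEFs under the same stress no member was called either, in 17 tests by limma with 1 unadjusted p under 0.05, nor with outlier spots kept, in 27 tests with 2. Here 1.27% of all genes were called with anisomycin, 0.414% with TNFα and 0.697% with NaCl at 2 h, and with outlier spots kept 1.57%, 0.489% and 1.17%.

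**Figure D3:**
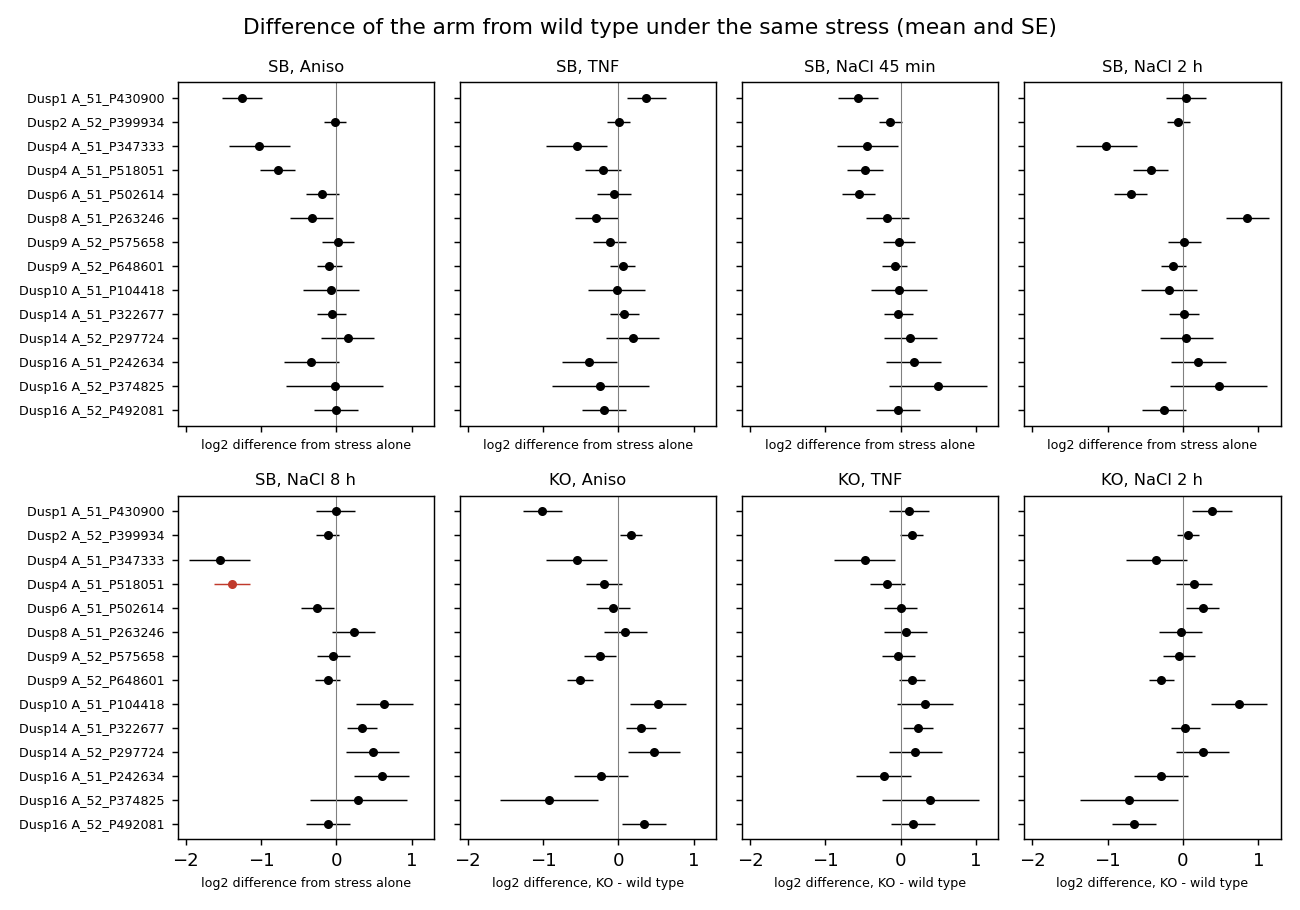
Difference in log2 ratio of cells with SB203580 from stress alone (5 panels) and of p38α-/- from wild type MEFs (3 panels) under the same stress, for the 14 probes with outlier spots kept; points are means of 2 arrays against 2 and bars are the SE of the fit. The point in red, probe A_51_P518051 of Dusp4 with SB203580 and NaCl at 8 h (-1.38), is the one with an adjusted p under 0.05 in the fit of single probes.

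The largest differences of Dusp1 were with anisomycin. SB203580 with anisomycin gave 3.83 and 3.38 (12.2-fold above the pool, the second an outlier spot) and anisomycin in p38α-/- MEFs gave 3.63 and 4.07 (14.4-fold), against 5.06 and 4.66 in wild type MEFs. All 4 arrays of the arms lay below both wild type arrays and far above the pool. The difference with SB203580 was -1.25 ± 0.26 (0.419 of the wild type level, adjusted p = 0.192 with outlier spots kept). That of the knock out was -1.01 ± 0.26 (0.497 of the wild type level, adjusted p = 0.0653, or 0.0278 with the replicate block and 0.0822 with scanning batch as a term). Within the scanning batch that held both genotypes it was -1.03, from 1 array each.
The differences of Dusp1 under the other stresses were smaller. With TNFα it gave 1.84 and 1.97 after SB203580 and 1.40 and 1.89 in p38α-/- MEFs, against 1.39 and 1.67. With NaCl at 2 h it gave 3.40 and 3.52 after SB203580 (difference 0.04 ± 0.21) and 3.77 and 3.84 in p38α-/- MEFs (14.0-fold above the pool, difference 0.38 ± 0.21, adjusted p = 0.514), against 3.51 and 3.34. At 8 h SB203580 gave 2.64 and 3.02 against 2.79 and 2.89 (difference -0.01 ± 0.26), and at 45 min 2.12 and 1.43 against 2.66 and 2.02 (-0.57 ± 0.26, adjusted p = 1 with outlier spots kept).

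Of the members under NaCl, Dusp4 had the largest difference between SB203580 and stress alone, at 8 h. With NaCl at 8 h probe A_51_P347333 gave -0.31 and 0.79 after SB203580 against 1.35 and 2.22 without it, and probe A_51_P518051 gave -0.66 and -0.12 against 1.00 and 0.98. Neither probe's arrays overlapped between the groups. The difference of the gene was -1.46 ± 0.31 (0.363 of the level with NaCl alone, adjusted p = 0.0603, or 0.00664 with the replicate block and 0.0106 with scanning batch as a term). The single probes gave -1.55 ± 0.43 (adjusted p = 0.29, or 0.0419 with the block) and -1.38 ± 0.24 (adjusted p = 0.0156), in a fit added after the data were seen.
At the other NaCl times Dusp4 was also lower after SB203580, without passing the test. Probe A_51_P347333 gave 1.14 and 1.44 at 2 h, against 2.57 and 2.04, and 0.61 and 0.63 at 45 min, against 1.18 and 0.95. With anisomycin it gave 0.18 and 0.20 after SB203580, against 1.35 and 1.08, and the difference of the gene was -0.90 ± 0.31 (adjusted p = 1).
In p38α-/- MEFs the same probe gave 2.15 and 1.74 at 2 h of NaCl, 1.14 and 0.17 with anisomycin, 0.64 and 0.10 with TNFα and 0.96 and -0.41 without stress. At 2 h of NaCl the gene differed from wild type MEFs by -0.10 ± 0.31 (adjusted p = 0.934), and the arrays overlapped.

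Dusp8 gave 2.41 and 1.57 with anisomycin after SB203580 (the second an outlier spot) and 2.13 and 2.68 in p38α-/- MEFs (5.29-fold above the pool), and the wild type values of 2.48 and 2.15 lay among them. The knock out differed from wild type by 0.09 ± 0.26 with anisomycin (adjusted p = 0.918) and by -0.03 ± 0.26 with NaCl at 2 h (adjusted p = 0.984). With TNFα it gave 1.58 and 1.13 after SB203580 and 1.70 and 1.75 in p38α-/- MEFs. The one group with NaCl in which Dusp8 was above the pool on both arrays by more than 1 was SB203580 with NaCl at 2 h, at 1.22 and 1.33 (1.28, 2.42-fold, called with outlier spots kept, the first being one), against 0.73 and 0.11 without the inhibitor (difference 0.85 ± 0.28, adjusted p = 1).

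Dusp10 gave 1.49 and 0.98 with anisomycin after SB203580 and 1.82 and 1.84 in p38α-/- MEFs. With NaCl at 2 h it gave 1.41 and 1.97 after SB203580 and 2.67 and 2.56 in p38α-/- MEFs (2.62, 6.14-fold above the pool), the highest level of this gene. The latter differed from wild type by 0.74 ± 0.37 (adjusted p = 0.456), and by 1.35 within the scanning batch that held both genotypes. At 8 h it gave 1.43 and 1.47 after SB203580, above the wild type arrays of 0.69 and 0.93 (0.64 ± 0.37, adjusted p = 1).
Dusp6 gave 0.23 and 0.39 at 2 h of NaCl after SB203580 and 0.82 and 1.72 in p38α-/- MEFs (1.27, 2.41-fold above the pool), against 0.82 and 1.19 in wild type MEFs, all outlier spots. The difference with SB203580 was -0.69 ± 0.22 (adjusted p = 1) and that of the knock out 0.26 ± 0.22 (adjusted p = 0.602).
Probe A_52_P297724 of Dusp14 reached its highest level with SB203580 and NaCl at 8 h, at 1.97 and 2.08 (4.08-fold above the pool), and so did probe A_51_P242634 of Dusp16 at 1.39 and 2.32 (3.61-fold). The averages of Dusp14 over both probes in p38α-/- MEFs did not pass the test against wild type MEFs (0.39 ± 0.26 with anisomycin, adjusted p = 0.586, and 0.15 ± 0.26 with NaCl at 2 h, adjusted p = 0.879). With outlier spots kept and scanning batch as a term the difference with anisomycin was 0.70 ± 0.14 (adjusted p = 0.0105), a call that 2.9% of all genes shared. Probe A_52_P374825 of Dusp16 gave 1.68 and 2.53 with SB203580 and anisomycin, and 1.62 and 0.79 in p38α-/- MEFs with anisomycin. The average of Dusp9 was lower than the pool in p38α-/- MEFs with anisomycin, at -0.53 (adjusted p = 0.0131), or -0.43 (adjusted p = 0.0117) with outlier spots kept.

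**Figure D4:**
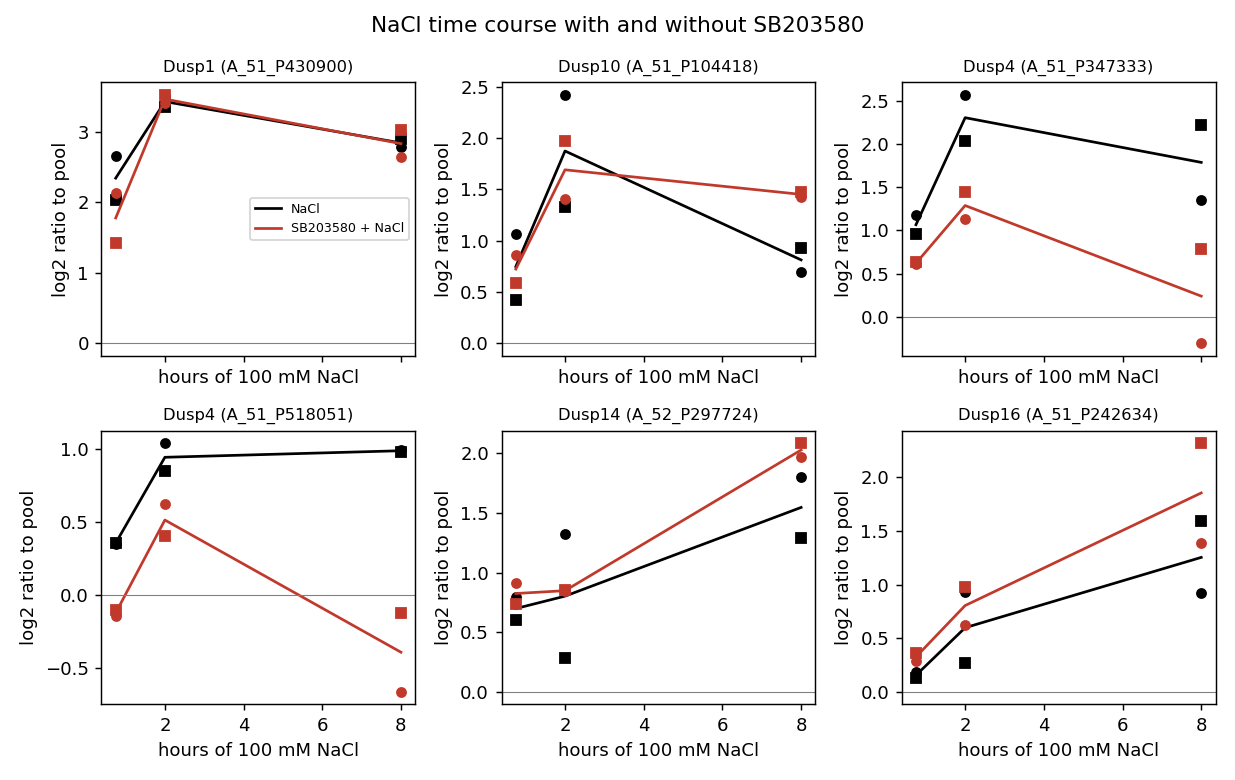
Log2 ratio to the pool against hours of 100 mM NaCl for 6 probes of Dusp1, Dusp10, Dusp4, Dusp14 and Dusp16, without (black) and with (red) SB203580; circles are first arrays, squares second arrays and lines join the means, outlier spots are included, and each panel has its own scale. The lines of Dusp1 meet at 2 h and 8 h, whereas both Dusp4 probes at 8 h lie lower with SB203580 (-0.31 and 0.79 against 1.35 and 2.22, and -0.66 and -0.12 against 1.00 and 0.98).

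Since both arms had levels of their own without stress, the induction in each arm was also taken over its unstressed group. That of wild type MEFs was taken over the pool, as no untreated wild type array could be subtracted. A constant offset of a probe above the pool would cancel in the arm only and make its induction look smaller. The unstressed arrays of an arm entered every comparison of it, at all NaCl times, so these comparisons are not independent. The main test called no member in 41 tests by limma over 8 comparisons, 7 of them with an unadjusted p under 0.05; Dusp4 with SB203580 and NaCl at 8 h, at -1.11 ± 0.37, had an adjusted p of 0.157, or 0.0469 with the block. With SB203580 0.583% of all genes were called with anisomycin, 0.651% with TNFα and 0.0936%, 1.65% and 0.295% with NaCl at 45 min, 2 h and 8 h, and in p38α-/- MEFs 0.542% with anisomycin, 0.45% with TNFα and 0% with NaCl. With outlier spots kept 3 of 72 tests were called, all of Dusp1, and 12 had an unadjusted p under 0.05. The induction of Dusp1 was smaller by 2.11 ± 0.32 with SB203580 and anisomycin (log2 -2.11, adjusted p = 0.0046), by 1.42 ± 0.32 with SB203580 and NaCl at 45 min (-1.42, adjusted p = 0.05, just under the threshold) and by 1.49 ± 0.32 in p38α-/- MEFs with anisomycin (-1.49, adjusted p = 0.0101). The shares of all genes were 8.43%, 8.9%, 0.669%, 9.5% and 3.8% with SB203580 and 7.2%, 8.13% and 3.54% in p38α-/- MEFs. With scanning batch as a term as well, 10 of the 72 tests were called, of Dusp14 in 5 comparisons, Dusp1 in 3, Dusp4 in 1 (SB203580 with NaCl at 8 h) and Dusp10 in 1 (SB203580 with NaCl at 2 h), all towards a smaller induction than in wild type MEFs. The shares of all genes called then were 17.6%, 16.5%, 7.43%, 19.2% and 11.3% with SB203580 and 14.7%, 8.81% and 10.5% in p38α-/- MEFs, so the members' count lay within the range of the background. In this fit the calls of Dusp14 with SB203580 lay between -0.64 and -0.53. Under the same stresses the groups with and without SB203580 differed by 0.03 to 0.13. A part of a probe offset in these calls was not tested.
These calls used the levels of Dusp1 without stress (0.86 with SB203580 and 0.48 in p38α-/- MEFs) and were each lost without some single array. For SB203580 and anisomycin the adjusted p was 0.0513 without the first anisomycin array (-1.91) and 0.0605 without the first of SB203580 alone (-1.87). For NaCl at 45 min it was 0.282 without the first NaCl array (-1.11), 0.291 without the first of SB203580 alone (-1.18), and 0.0762 and 0.113 without the first and second of SB203580 with NaCl (-1.77 and -1.07). For p38α-/- MEFs it was 0.103 without the first anisomycin array of wild type MEFs (-1.29), 0.112 without the first untreated p38α-/- array (-1.32) and 0.0572 without the first p38α-/- array with anisomycin (-1.27).

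The other genes around the pathway were tested with outlier spots left out. The shares of all genes called lower in the stress groups are not given here. The counts called lower in the lists below thus cannot be set against a background. Of 26 other dual-specificity phosphatases and their relatives 22 were on the array, and with anisomycin, TNFα and NaCl at 45 min, 2 h and 8 h 1 of 17, 1 of 18, 0 of 16, 0 of 19 and 2 of 18 tested were called higher than the pool, and 2, 1, 0, 2 and 2 were called lower. Their medians lay between -0.07 and 0.01, where those of all genes lay between 0 and 0.01. Of these, Ptp4a2, a phosphatase of the PRL family, passed 2.5-fold: at 8 h of NaCl it gave 1.61 and 1.86 (3.33-fold), and 0.88 and 0.66 with SB203580 (difference -0.96 ± 0.18, adjusted p = 0.0415).
All 17 MAP kinases and MAP kinase kinases were on the array. None was called higher with anisomycin or TNFα (of 12 and 8 tested) or with NaCl at 45 min (of 6), and 3 of 14 were at 8 h (Mapk7, Mapk14 and Map2k3). The numbers called lower in these 4 groups were 1, 1, 3 and 4, with medians between -0.34 and -0.09.
Of 14 other feedback genes 11 were on the array. Called higher were 3 of 6 tested with anisomycin, 2 of 7 with TNFα, and 4 of 6, 4 of 9 and 2 of 8 with NaCl at 45 min, 2 h and 8 h, and Dok1, an adaptor that dampens Ras signalling, was the one gene called lower with anisomycin, with TNFα and at 45 min of NaCl. The medians were 0.44, 0.35, 0.69, 0.60 and -0.13.
Spry4, an inhibitor of receptor signalling to ERK, gave 2.21 and 1.76 with anisomycin (3.95-fold). It gave -0.29 and -0.47 with SB203580 and anisomycin (difference -2.36 ± 0.34, adjusted p = 0.00875) and 0.27 and 0.22 in p38α-/- MEFs (-1.74 ± 0.34, adjusted p = 0.014). Its arrays in the arms thus lay far below the wild type arrays. Without stress Spry4 gave -0.76 and -0.70 with SB203580 alone (adjusted p = 0.0329 by limma) and -0.08 and -0.09 in untreated p38α-/- MEFs. Taken over the unstressed arm, neither induction with anisomycin passed the main test. The difference was -1.63 ± 0.42 with SB203580 (adjusted p = 0.0766, or 0.0398 with the block) and -1.66 ± 0.42 in p38α-/- MEFs (adjusted p = 0.0754, or 0.0383).
Spry2, of the same family, gave 1.78 and 1.69 at 2 h of NaCl (3.33-fold). Gadd45b, a stress protein that binds MAP kinase kinases, gave 1.90 and 1.54 with TNFα (3.29-fold) and 1.72 and 1.43 at 2 h of NaCl (2.98-fold). Zfp36, which destabilises cytokine transcripts, gave 2.62 and 3.55 with TNFα (8.51-fold) and 2.41 and 1.92 at 2 h of NaCl (4.48-fold). At 2 h of NaCl after SB203580, Spry2 gave 1.47 and 1.52, Gadd45b 1.91 and 1.87, and Zfp36 0.71 and 1.04. In p38α-/- MEFs they gave 1.33 and 1.45, 1.76 and 1.88, and 1.42 and 1.47. None of these groups differed from wild type MEFs under NaCl alone past the test. Taken over SB203580 alone, the induction of Zfp36 at 2 h of NaCl was called as smaller (-1.62 ± 0.32, adjusted p = 0.0212), beside 1.65% of all genes. Those of Spry2 (-0.72, adjusted p = 0.0995) and Gadd45b (0.42, adjusted p = 0.447) were not called. In p38α-/- MEFs none of the 3 was called (adjusted p = 0.282 for Spry2, 0.216 for Gadd45b and 0.377 for Zfp36).

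The genes whose 15 group means were most like those of a member were listed for the members called in at least 3 of the 5 wild type stress groups, as a description over points that share the pool. For Dusp4 these were Ptgs2 (Pearson r 0.95), Ier5 (0.92) and 5330439J01Rik (0.91), and for Dusp10 Ankk1 (0.88), Nppb (0.85) and Dlx2 (0.84), among 10458 genes measured in all 15 groups without outlier spots. With outlier spots kept Dusp1 also qualified, with Cdh23 (0.90), Topors (0.89) and E2f2 (0.87) among 21689 genes, while Ptgs2 (0.96) and Ankk1 (0.88) again led for Dusp4 and Dusp10.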

How the data were processed

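RNA of mouse embryonic fibroblasts was hybridised to 30 2-colour Agilent 44K arrays, in 15 groups of 2. Spot intensities were made by the authors with Agilent Feature Extraction (8.1.1.1 in the file headers, 9.1 in the submitters' processing notes), with spatial detrending, no local background subtraction, linear and LOWESS dye normalization, and a surrogate for dim signals. The deposited log10 ratios of processed Cy5 to Cy3 were multiplied by log2 of 10. The authors also deposited a series matrix that correlated with the scanner ratios at r between 0.84 and 0.97. Its log base is not stated in the sources used here, and its values were taken as log2 ratios because their standard deviation per array was 0.928 to 1.08 times that of the scanner log2 ratios; its array medians lay between -0.05 and 0.02, and how it was centred is unknown. Ratios followed the dyes as the labels give them, with no dye swap. Control spots and outlier spots were left out, and values were averaged over the spots of each probe, then over the probes that share a gene name.

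limma (3.58.1, R 4.3.3) fitted 15 group means to 30 arrays, with empirical Bayes moderation and 15 residual degrees of freedom. A contrast was tested where both arrays of each group were measured, with the Benjamini-Hochberg adjustment over all genes tested and a threshold of 0.05. The model was checked on simulated data. All arrays share 1 control pool, whose own spread is not in the tests, and the small number of arrays limits the precision. The members and gene lists were chosen with earlier results of these data known. The genes named were all members, Mapk14, genes of the pathway lists called at 2.5-fold or more in a wild type stress group, and the 3 genes most like a member called in at least 3 of 5 stress groups; genes of the lists named below that size were named after their values were seen. Cell type markers are named by list. The result for 1 gene of the pathway lists is not reported here.

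The replicate numbers pair the arrays within a genotype: the differences between the 2 arrays of a group had a correlation over 0.1 for all 55 pairings of 2 wild type groups (median 0.46) and all 6 of p38α-/- groups (median 0.25), but for 6 of 44 across genotypes. The pairing comes from these values and follows 4 scanning batches: all first wild type arrays shared a batch, and all second ones shared another with the first p38α-/- arrays. Alternatives were the series matrix, normexp background correction (offset 50) and loess, outlier spots kept, the brightest probe, spots well above background only, the replicate block, scanning batch as a term or a random block, wild type arrays only, and each array left out. Fits of single probes, outlier spots kept with the block or the batch term, and batch, wild type and left-out-array settings with outlier spots kept were added after the data were seen. Python 3.11.15 with pandas 2.3.3, numpy 2.4.6 and matplotlib 3.10.9 was used.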

Additional observations from a re-analysis of the deposited data

Results flagged for a closer look

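The induction of Dusp1 over the unstressed arm differed from that in wild type MEFs in 3 comparisons, each by a test of the difference with outlier spots kept. It was -2.11 (log2, adjusted p = 0.0046 by limma) with SB203580 and anisomycin, -1.42 (adjusted p = 0.05) with SB203580 and NaCl at 45 min, and -1.49 (adjusted p = 0.0101) in p38α-/- MEFs with anisomycin. The level of Dusp1 in the unstressed arm (0.86 with SB203580 and 0.48 in p38α-/- MEFs) enters each of these values, and its part was not tested apart from them. No untreated wild type array could be subtracted in the same way.

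With anisomycin the average of both Dusp4 probes was above the pool on both arrays of wild type MEFs (0.89 and 0.72) and below it on both arrays with SB203580 (-0.11 and -0.09), a difference of -0.90. The opposite signs themselves were not tested; the limma contrast of the groups had an adjusted p of 1 and an unadjusted p of 0.00848.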

How the results depend on the processing

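No called average of a member reversed its direction under the alternatives in which it could be tested. The call of Dusp16 with anisomycin could not be tested with its brightest probe, A_52_P492081, since both spots were outliers. These spots gave -1.37 and -1.07, opposite to the called average of 1.55. Differences near 0 that were not called could change sign: with scanning batch as a term that of the knock out from wild type MEFs with NaCl at 2 h went from -0.10 to 0.20 for Dusp4 and from -0.03 to 0.14 for Dusp8. With each array left out in turn, 52 of 88 values of members kept their side of the threshold and 36 lost it. Outside the left-out arrays the lost calls were Dusp10 at 8 h of NaCl and with SB203580 alone under normexp and loess, Dusp10 at 8 h with scanning batch as a random block, Dusp1 in untreated p38α-/- MEFs with outlier spots kept, and Dusp2 and Dusp6 with SB203580 and Dusp9 in untreated p38α-/- MEFs under the series matrix. The cause was not tested. Scanning batch as a fixed term gives differences between groups and no levels against the pool. The counts below are of members called.

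For TNFα the count of 1 became 4 under the series matrix, 2 with the brightest probe, 2 with outlier spots kept, 2 with the replicate block, 4 with outlier spots kept and the block, and 3 and 5 for single probes without and with outlier spots. For NaCl at 45 min the count of 0 became 2 under the series matrix, with outlier spots kept and with the replicate block, 1 with wild type arrays only, 4 with outlier spots kept and the block, and 2 for single probes with outlier spots. For NaCl at 2 h 3 became 5 with outlier spots kept and the block, and 5 for single probes with outlier spots. For SB203580 alone 2 became 5 with outlier spots kept, 5 with the block as well, and 4 and 7 for single probes. For untreated p38α-/- MEFs 2 became 4 with outlier spots kept and the block and 4 for single probes with outlier spots. For SB203580 against stress alone 0 became 1 (Dusp4 at 8 h of NaCl) with spots well above background only, with the replicate block, with scanning batch as a random block or a fixed term, with wild type arrays only, with outlier spots kept and the block or the batch term, and for single probes of both kinds. For the knock out against wild type 0 became 1 (Dusp1 with anisomycin) under the series matrix and with outlier spots kept and the block, and 1 (Dusp14 with anisomycin) with outlier spots kept and scanning batch as a fixed term. For the inductions over the unstressed arm 0 became 3 under the series matrix, 3 with outlier spots kept, 1 with the replicate block, 1 with scanning batch as a fixed term, 7 with outlier spots kept and the block, 10 with outlier spots kept and the batch term, and 9 for single probes with outlier spots. Between stresses and times 1 became 2 under normexp, with the brightest probe, with spots well above background only and with scanning batch as a random block or fixed term, 6 under the series matrix, 4 with outlier spots kept, 3 with the replicate block, 7 with outlier spots kept and the block, 6 with outlier spots kept and the batch term, and 2 and 4 for single probes. With an array of a compared group left out, 1 array remained in that group and the members that could be tested changed. Counts are therefore not given for these fits. Where 1 array remained in a group, the fit took its spread from the remaining groups. Apart from the values given in the report and these counts, the replicate block changed no call of a value whose adjusted p the report gives.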
